A study of Mus musculus with 4 samples.

Results

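The signal of genes of the lysosome, the organelle in which cells digest what they take up, was followed in cultured mouse dendritic cells (DCs). A list of 40 genes held glycosidases, sulfatases, lipid hydrolases, peptidases, membrane proteins, subunits of the proton pump, the channel gene Mcoln1 and the transcription factor gene Tfeb. Members were taken as the array probes that carry exactly that gene name, and each gene was represented by its brightest probe over the arrays. This gave 39 genes with 71 probes, out of 19786 genes named in the whole data set, and the 39 brightest probes were well above background on all 4 arrays. No probe was named Tfeb.

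BALB/C mouse bone marrow gave 4 cultures, each measured on 1 one-colour Agilent array, so no value has a replicate and no test of the differences was possible. Immature DCs (imDCs) came from marrow cells grown with IL-4 at 5 ng/mL and GM-CSF at 10 ng/mL, and were taken on day 4 with magnetic beads for the integrin CD11c. Mature DCs (maDCs) were imDCs held for 4 to 5 further days with lipopolysaccharide (LPS), a bacterial product that activates DCs, at 10 ng/mL. The cells named sDCs grew from lineage-depleted progenitors on a layer of Sca-1+CD117-Lin- mesenchymal stem cells, with LPS from day 4 at a dose not given in the sources used here, and were formed by day 9. The last culture was made as the sDCs were, with an IL-10-neutralizing antibody at 10 µg/mL every 2 days. Age, sex and number of the donor mice, and the way sDCs were separated from the stromal layer, are not given in the sources used here.

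Lysosomes are kept acidic by the vacuolar proton pump (V-ATPase), a rotary enzyme with a cytosolic V1 part that burns ATP and a membrane V0 part that carries protons. Most soluble hydrolases reach the organelle with a mannose 6-phosphate tag, and heavily glycosylated proteins such as LAMP-1 and LAMP-2 line the membrane. In DCs and macrophages these enzymes break down captured particles and prepare antigen for MHC class II molecules. The transcription factor TFEB and its relatives bind an E-box, CACGTG, that recurs near the start of many lysosomal genes.

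The promoters below are shown because that E-box core lies in them, for 6 of the 10 members that hold it, whose signal is described further on. They were read from RefSeq promoter windows of the build GRCm38.p6, which run from 250 bases before to 50 bases after each gene's start and were found for 34 of the 40 genes. Each is written 5′ to 3′ on the gene's strand, with the cores in capitals. The 6 shown include every member with a core that was at least 2-fold higher in sDCs than imDCs. The display therefore cannot show a link between the core and the signal.
Lamp1, chr8:13159080-13159160, plus strand: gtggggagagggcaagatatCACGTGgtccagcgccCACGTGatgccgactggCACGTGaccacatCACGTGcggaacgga
Mcoln1, chr8:3500428-3500499, plus strand: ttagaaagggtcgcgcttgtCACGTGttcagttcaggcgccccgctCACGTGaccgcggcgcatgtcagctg
Gla, chrX:134601174-134601252, minus strand: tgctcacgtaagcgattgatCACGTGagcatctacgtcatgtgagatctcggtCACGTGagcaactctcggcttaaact
Naglu, chr11:101070001-101070046, plus strand: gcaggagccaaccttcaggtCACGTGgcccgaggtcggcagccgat
Sgsh, chr11:119355514-119355559, minus strand: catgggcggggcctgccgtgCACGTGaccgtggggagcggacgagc
Arsa, chr15:89477425-89477460, minus strand: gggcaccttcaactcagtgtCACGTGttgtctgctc

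Lamp1 held 4 cores within 61 bases of its start, and Mcoln1 and Gla held 2 each. Gaa, Glb1, Atp6v1a and Atp6v0d1 also had a core, so that 10 of the 34 members with a window did (29.4%), against 8.09% of the 27025 genes with a window. CACGTG reads the same on both strands. The longer palindrome TCACGTGA, which contains it, was present in 4 of 34 members (Atp6v0d1, Atp6v1a, Gla and Mcoln1; 11.8%) and in 1.12% of all genes. Among 67 other lysosomal genes with a window, 18 (26.9%) had the shorter and 10 (14.9%) the longer form. A match describes letters in a window and does not show that a factor binds there.

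Before the genes themselves, the identity of the cultures bears on every comparison with them. Of 9 DC markers, Itgax (CD11c), Cd74 and the MHC class II genes H2-Aa and H2-Ab1 were well above background on all 4 arrays, but the summed level of the list, in units of each array's 75th percentile, was 291 in imDCs, 410 in maDCs, 9.44 in sDCs and 8.58 in antibody-treated sDCs, and Irf4 was dim in both stromal cultures. The sum over 11 macrophage markers was 31.0, 142, 235 and 209, so it was higher in both stromal cultures than in the others, and all 11 were at least 2-fold higher in sDCs than in imDCs. All 12 stromal markers were well above background in both stromal cultures against 9 of 12 in imDCs and in maDCs. In sDCs against imDCs, 11 of these 12 were at least 2-fold higher and 1 lower, with a median of 7.57 that counts 3 genes at a bound; Col1a1 was 286-fold and Dcn 1143-fold higher. Neutrophil markers summed to 1160 in imDCs and to 84.0, 129 and 236 in maDCs, sDCs and antibody-treated sDCs. Although this sum was higher in sDCs than maDCs, 5 of 8 neutrophil markers were at least 2-fold lower there and 1 higher (median -1.45). With imDCs first and the same order after, mast cell and basophil markers summed to 9.16, 88.9, 0.275 and 0.318. Eosinophil markers summed to 26.5, 3.46, 0.0473 and 0.0836. In bulk RNA, fewer cells of a type and less RNA per cell cannot be told apart, and the part of these cell types in the lysosomal differences was not tested. The imDCs were hybridised on a slide of their own and the rest shared another, so in comparisons with imDCs the slide and the culture cannot be told apart.

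All values are log2 normalized signal, in which 0 is the 75th percentile of the array, and a gene is called higher or lower at a difference of 1, a 2-fold change. In sDCs against imDCs, 14 of the 39 (35.9%) passed 2-fold upward, 3 (7.69%) downward and 22 neither, where 25.4% of all 15032 genes measured were higher and 16.1% lower. The median difference of the 39 genes was 0.87, against 0.21 for all genes, and 32 of the 39 lay above that of all genes. In maDCs against imDCs, 9 were higher and 1 lower, at a background of 21.6% higher and 10.8% lower over 14107 genes, so the share of members higher (23.1%) was close to the background. Their median was 0.63 against 0.18. Between sDCs and maDCs, 7 were higher in sDCs and 2 lower, with medians of 0.32 and 0.03, and the background was 14.2% higher and 16.8% lower over 14599 genes. These comparisons share arrays with each other and are not independent. The median of all genes depended on the scaling of the arrays: with each array set to its median signal it was -0.20 in maDCs and -0.18 in sDCs relative to imDCs, while the members' medians exceeded it by 0.44 and 0.66, as against 0.45 and 0.66 here. Without the filter on dim probes the excess was 0.23 and 0.49, and over all alternatives it ran from 0.23 to 0.46 in maDCs and from 0.49 to 0.75 in sDCs. Of all genes called, 66.7% were higher in maDCs than imDCs and 61.2% in sDCs than imDCs with the scaling used here, and 43.1% and 42.9% with median scaling.

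**Figure D1:**
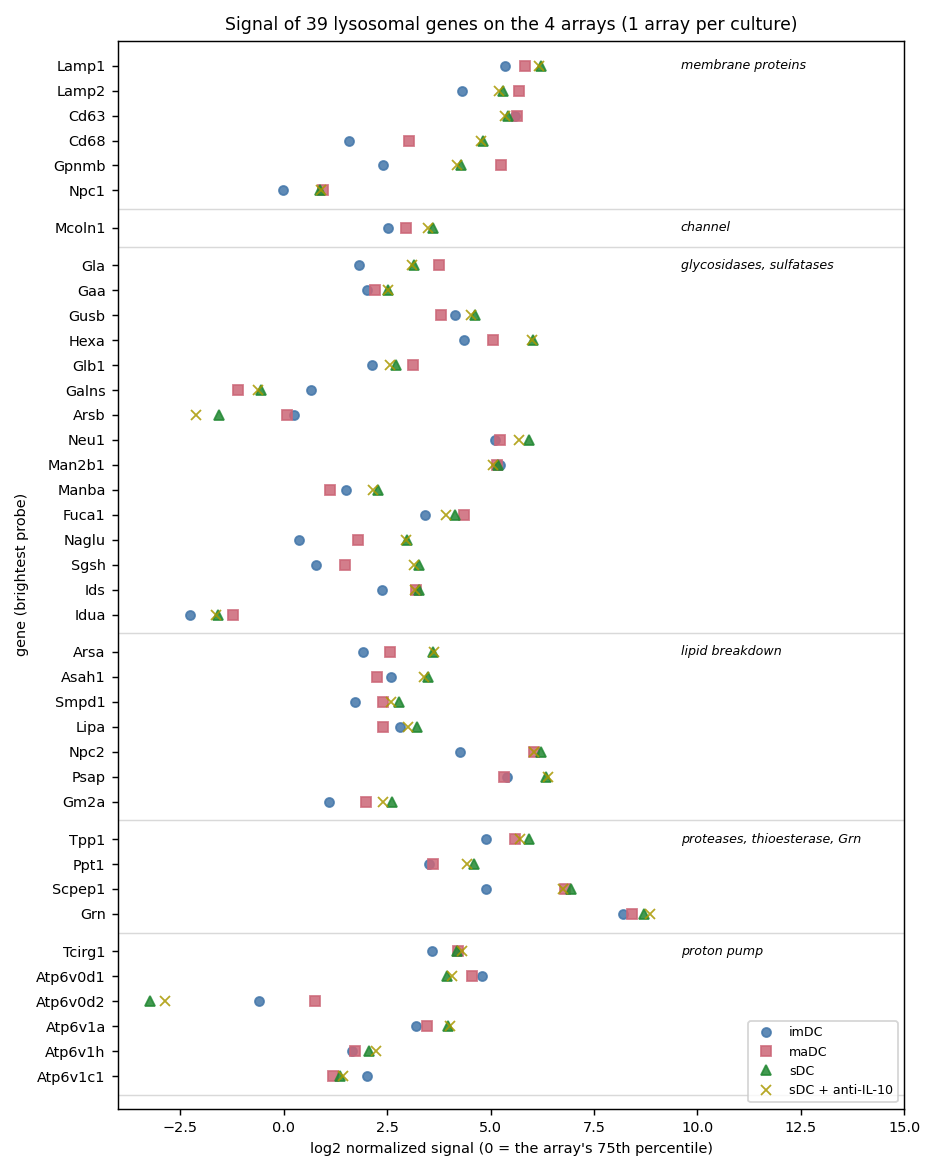
Log2 normalized signal (x axis; 0 is the array's 75th percentile) of the brightest probe of each of the 39 genes (y axis, by role), with 1 point for each of the 4 arrays and no error bars because there are no replicates. Points are to be compared within a row only, since probes differ in brightness: in most rows the circle of imDCs lies left of the triangle of sDCs, and the triangle and the cross of antibody-treated sDCs nearly coincide.

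**Figure D2:**
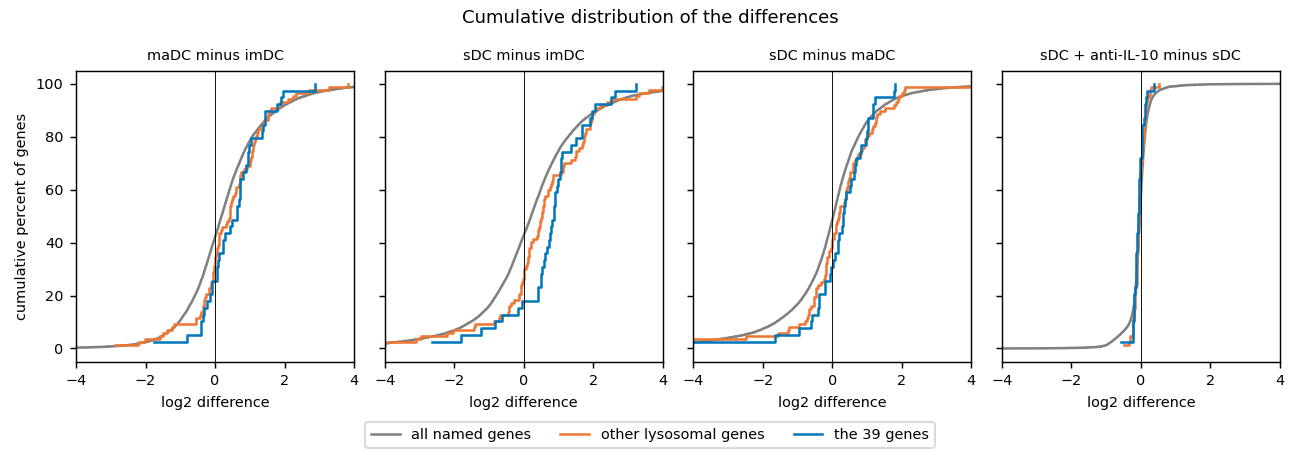
Cumulative percent of genes (y axis) against the log2 difference (x axis, shown from -4 to 4) in the 4 comparisons, for all named genes measured, other lysosomal genes (87) and the 39 genes. The curve of the 39 genes lies to the right of that of all genes over most of its range in the first 3 panels, with medians of 0.63, 0.87 and 0.32, and near it in the last.

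Among the 6 membrane proteins, 3 (50%) were higher in maDCs than imDCs and 2 (33.3%) in sDCs than imDCs, beside 21.6% and 25.4% of all genes. Cd68, which encodes macrosialin, a mucin-like protein of the lysosome membrane of phagocytes, gave 1.57 in imDCs, 3.02 in maDCs, 4.81 in sDCs and 4.76 in antibody-treated sDCs. It was lowest in imDCs, intermediate in maDCs (1.45 above imDCs) and highest in both stromal cultures. Relative to imDCs it was 9.42-fold higher in sDCs, a log2 difference of 3.24 (probe at mm9 chromosome 11, 69478314 to 69478373; exon annotation of that build was not used here). Gpnmb encodes a transmembrane glycoprotein of lysosomes and melanosomes that activated macrophages make in quantity. Its signal was 2.39, 5.26, 4.29 and 4.19 in the same order of cultures, which put maDCs 7.29-fold above imDCs, with sDCs in between. A dimmer probe of Gpnmb gave 1.99 for maDCs and 2.51 for sDCs against imDCs, so the order of maDCs and sDCs differed between its probes. Both genes are also associated with macrophages. Without them 12 of 37 genes (32.4%) passed 2-fold upward and 3 (8.11%) downward in sDCs against imDCs. Of all genes, 25.4% were higher and 16.1% lower in that comparison.

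The other membrane protein genes differed less. Lamp1 was higher by 0.49 in maDCs and 0.87 in sDCs than in imDCs and so stayed within 2-fold in both. Lamp2, whose product also serves in autophagy carried out through chaperones, differed by 1.37 and 0.99 on its brightest probe. Its other 2 measured probes gave 0.55 and -0.15 for maDCs, so the call of Lamp2 in maDCs rested on 1 of 3 probes. In sDCs these 2 probes passed 2-fold, at 1.35 and 1.11. They also put sDCs above maDCs, by 0.80 and 1.25, where the brightest probe gave -0.38. Cd63, a tetraspanin of late endosomes and exosomes, was level across the arrays, between 5.34 and 5.63. Npc1, which exports cholesterol from the lysosome, was higher by 0.95 in maDCs and 0.89 in sDCs. Mcoln1 encodes the calcium channel TRPML1 and differed by 0.44 in maDCs and 1.09 in sDCs, with a second probe at 0.29 and 1.30.

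Tfeb itself was absent by name, but 1 probe carried its older name Tcfeb and lies outside the rule that chose the genes. That probe gave -3.34 in imDCs, -3.79 in maDCs, -3.09 in sDCs and -2.84 in antibody-treated sDCs. All differences of the Tcfeb probe were within 2-fold, the widest of them 0.70 between sDCs and maDCs. Of its relatives, Mitf was higher in maDCs (1.07) and sDCs (1.51) than in imDCs, Tfe3 stayed within 2-fold (-0.41 and 0.52), and Tfec, a macrophage-lineage member of the family, was lower in both (-1.49 and -3.98). E-box cores were found in 5 of 14 members that were higher in sDCs than imDCs (35.7%) and in 5 of the other 19 measured members with a window (26.3%).

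Glycosidases and sulfatases, which strip sugars and sulfate from glycoproteins, glycolipids and glycosaminoglycans, made up 15 of the 39 genes. Relative to imDCs, 3 (20%) were higher and 1 (6.67%) lower in maDCs, and 4 (26.7%) higher and 2 (13.3%) lower in sDCs, shares close to those of all genes (21.6% and 10.8%, 25.4% and 16.1%). Naglu and Sgsh stood out. Naglu encodes N-acetylglucosaminidase, and its signal was 0.36 in imDCs, 1.80 in maDCs, 2.98 in sDCs and 2.96 in antibody-treated sDCs. Sgsh, the gene of heparan N-sulfatase, gave 0.77, 1.49, 3.28 and 3.14. Both were lowest in imDCs, intermediate in maDCs and highest in the stromal cultures, where sDCs lay 6.14-fold (Naglu) and 5.71-fold (Sgsh) above imDCs. The second probe of Sgsh gave 1.20 for sDCs against imDCs. It was not well above background in maDCs, where it was at least 1.18-fold lower than in imDCs, the opposite direction to the first.

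Both of these enzymes act on heparan sulfate, a sugar chain of cell surfaces and matrix, and after their values were seen other genes of its breakdown were set beside them. Hgsnat, which acetylates the chain end from the lysosome membrane, was higher by 0.44 in maDCs and 2.54 in sDCs than in imDCs. On their brightest probes, Ids (iduronate 2-sulfatase), Idua (iduronidase) and Gusb (glucuronidase) stayed within 2-fold in sDCs, at 0.89, 0.68 and 0.49. A dimmer probe of Gusb was past the threshold, 2.14-fold higher in sDCs than in imDCs, so its call differed between probes. Thus, by the brightest probes, 3 of these 6 genes were at least 2-fold higher in sDCs than imDCs. The 3 other probes of Ids gave -1.35, -0.62 and -0.01 in that comparison, so its direction is not settled. Idua was past 2-fold in maDCs (1.05).

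Arsb and Galns, sulfatases for dermatan and chondroitin sulfate and for keratan sulfate, went the other way. Arsb gave 0.24 in imDCs and 0.08 in maDCs but -1.56 in sDCs and -2.12 in antibody-treated sDCs, so both stromal cultures lay below both others, with sDCs 3.49-fold below imDCs. A second probe of Arsb was at -2.73 in sDCs and also at -1.51 in maDCs relative to imDCs. Galns was highest in imDCs (0.66), with -1.10 in maDCs, -0.56 in sDCs and -0.63 in antibody-treated sDCs. It was lower in maDCs than in imDCs by 3.39-fold, and no other of the 39 genes was 2-fold lower there, except Atp6v1c1 under median scaling (-1.19). Galns had 1 probe.

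**Figure D3:**
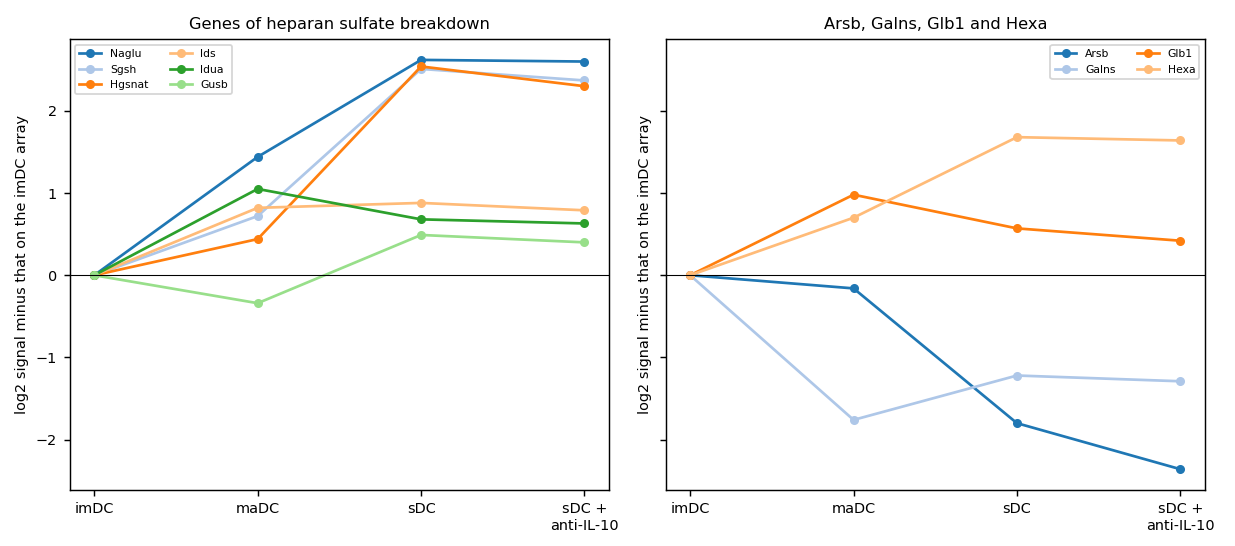
Log2 signal minus that on the imDC array (y axis) on the 4 arrays (x axis) for 6 genes of heparan sulfate breakdown (left) and for Arsb, Galns, Glb1 and Hexa (right), 1 array per culture, with lines that join the values of 1 gene and imply no order in time. Naglu, Sgsh and Hgsnat reach 2.62, 2.51 and 2.54 in sDCs, while Arsb and Galns lie at -1.80 and -1.23.

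The remaining glycosidases act mainly on glycolipids, glycoproteins and glycogen. Gla, the gene of alpha-galactosidase A, had a signal of 1.81 in imDCs, 3.75 in maDCs, 3.16 in sDCs and 3.10 in antibody-treated sDCs. It was lowest in imDCs and exceeded 2-fold in both maDCs (1.94) and sDCs (1.35). Its dimmer probe gave 1.67 and 3.42, so the 2 probes had opposite signs for sDCs against maDCs (-0.59 and 1.75). Hexa, the alpha chain of beta-hexosaminidase, was higher by 0.70 in maDCs and 1.68 in sDCs. Manba, the beta-mannosidase gene, gave 1.51 in imDCs, 1.11 in maDCs, 2.28 in sDCs and 2.15 in antibody-treated sDCs. It was lowest in maDCs, and in sDCs it was 2.26-fold above them, and a second measured probe gave 1.14 there on the log2 scale. Man2b1, the alpha-mannosidase gene, was within 0.08 of its imDC signal in maDCs and sDCs. Fuca1 (fucosidase), Glb1 (beta-galactosidase), Gaa (acid alpha-glucosidase) and Neu1 (sialidase) were within 2-fold in these comparisons, with 0.94, 0.98, 0.21 and 0.11 in maDCs and 0.73, 0.57, 0.51 and 0.80 in sDCs relative to imDCs. A second Glb1 probe was at -0.60 in sDCs, the opposite sign. The second Neu1 probe gave -0.54 in maDCs, also the opposite sign, and 0.09 in sDCs.

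The 7 genes of lipid breakdown were all above their imDC signal in sDCs, 4 of them by at least 2-fold (median 1.08), and all were above their maDC signal, 3 by at least 2-fold (median 0.81). Of all genes, 25.4% were at least 2-fold higher in sDCs than imDCs (median 0.21) and 14.2% in sDCs than maDCs (median 0.03). Npc2 encodes the soluble protein that hands cholesterol to NPC1. Its signal was 4.26 in imDCs, 6.04 in maDCs, 6.22 in sDCs and 6.05 in antibody-treated sDCs, so that the imDC array stood apart and the other 3 were within 0.18 of each other. Arsa (arylsulfatase A, for sulfatide) was higher in sDCs than imDCs by 1.68, Gm2a (the GM2 activator) by 1.51 and Smpd1 (acid sphingomyelinase) by 1.08. A dimmer probe of Gm2a gave 0.74, within 2-fold. Asah1, the acid ceramidase gene, gave 2.59, 2.26, 3.49 and 3.40 in imDCs, maDCs, sDCs and antibody-treated sDCs. It lay lowest in maDCs, and sDCs were 2.35-fold above them. Psap, the precursor of 4 saposins that present lipids to hydrolases, differed by -0.08 in maDCs and 0.95 in sDCs from imDCs. Lipa, the gene of the acid lipase that frees cholesterol from its esters, differed by -0.41 and 0.40. Thus Asah1, Psap and Lipa were below their imDC signal in maDCs and above it in sDCs.

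Of the genes for peptidases, a thioesterase and progranulin, 3 of 4 were higher in sDCs than in imDCs, beside 25.4% of all genes. Scpep1, a serine carboxypeptidase gene, had a signal of 4.90 in imDCs, 6.79 in maDCs, 6.95 in sDCs and 6.75 in antibody-treated sDCs, again with the imDC array apart from the rest. It was 3.71-fold higher in maDCs and 4.15-fold higher in sDCs, and its second probe gave log2 differences of 1.22 and 1.48. Tpp1 (tripeptidyl peptidase) and Ppt1 (palmitoyl-protein thioesterase) were higher in sDCs by 1.04 and 1.08, and in maDCs by 0.73 and 0.09. Both stood near the threshold, and with median scaling they were at 0.65 and 0.69. Grn, the gene of progranulin, a secreted glycoprotein that also reaches lysosomes, was within 2-fold on its brightest probe (0.22 and 0.53), while its other probe gave 1.44 in sDCs.

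**Figure D4:**
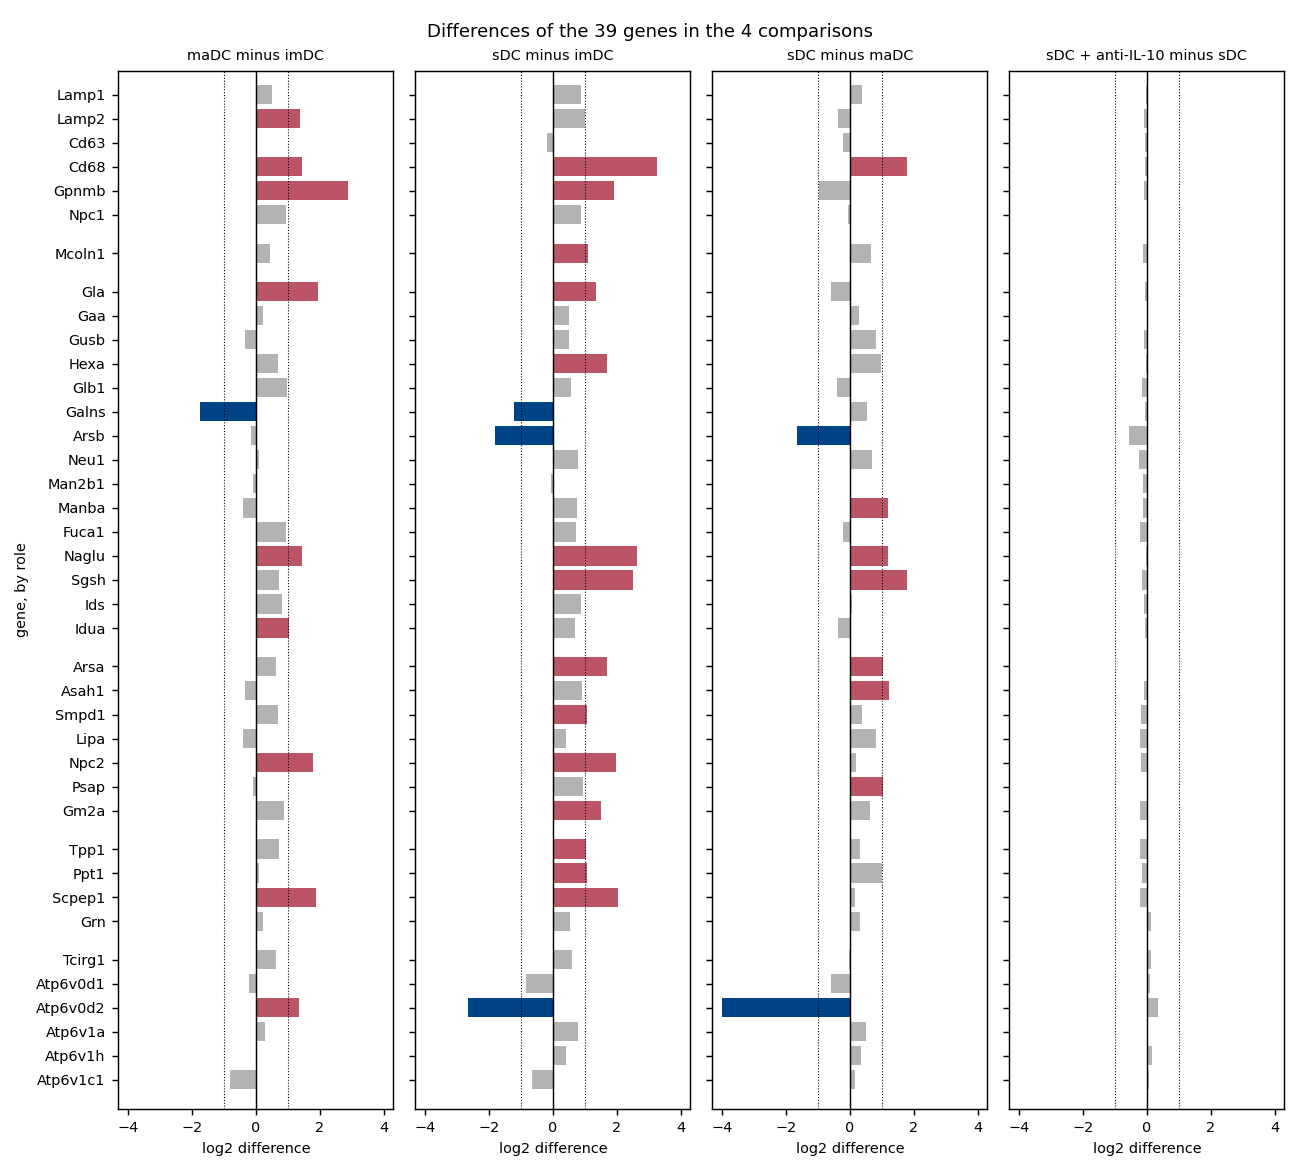
Log2 difference (x axis, bars from 0) of each of the 39 genes (y axis, by role) in the 4 comparisons, without error bars since each culture had 1 array; red bars are at least 2-fold higher, blue bars at least 2-fold lower, grey bars within 2-fold, and dotted lines mark 2-fold. Atp6v0d2 at -3.99 in sDCs against maDCs is the longest bar, and no bar passes the dotted lines in the panel of the antibody.

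The 6 proton pump genes did not move together: 1 was higher and none lower in maDCs than in imDCs, and 1 was lower and none higher in sDCs than in either imDCs or maDCs. Of all genes, 21.6% were higher and 10.8% lower in maDCs than imDCs. In sDCs, 25.4% were higher and 16.1% lower than in imDCs, and 14.2% higher and 16.8% lower than in maDCs. The outlying pump gene was Atp6v0d2, which encodes the d2 form of a V0 subunit and is known from osteoclasts. It gave -0.59 in imDCs, 0.76 in maDCs, -3.24 in sDCs and -2.87 in antibody-treated sDCs. Both stromal cultures were far below both others, with sDCs 6.26-fold below imDCs and 15.9-fold below maDCs, and its 1 probe (mm9 chromosome 4, 19804304 to 19804363) was well above background on each array. The more widely expressed d1 form, Atp6v0d1, had 4.78, 4.55, 3.95 and 4.06, which also put sDCs lowest, but within 2-fold (-0.83 against imDCs). With quantile normalization, median scaling and the deposited value table this difference was -1.03, -1.22 and -1.08. Osteoclast markers, a list without Atp6v0d2, summed to 19.5, 34.3, 27.4 and 31.0 in imDCs, maDCs, sDCs and antibody-treated sDCs. In sDCs against imDCs 4 of the 8 measured were above and 4 below 0 (median -0.08). They ran from Mmp9 at 3.63 and Ctsk at 2.39 to Ocstamp at -3.20 and Dcstamp, a gene of osteoclast and giant cell fusion, at -6.65. Against maDCs, 3 of the 8 were at least 2-fold higher in sDCs and 4 lower (median -0.99), from Mmp9 at 1.84 to Dcstamp at -7.44. Any relation of these markers to the Atp6v0d2 difference was not tested.

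The other 4 pump genes stayed within 2-fold in all comparisons with the scaling used here. Tcirg1, the a3 subunit of V0, gave 3.59 in imDCs, 4.22 in maDCs, 4.19 in sDCs and 4.31 in antibody-treated sDCs. Atp6v1a, the catalytic A subunit of V1, gave 3.19, 3.47, 3.97 and 4.01, and Atp6v1h, its regulatory H subunit, gave 1.66, 1.71, 2.06 and 2.22. Of these 3 genes imDCs had the lowest signal, but under median scaling Atp6v1a and Atp6v1h were below imDCs in maDCs (-0.11 and -0.33), as both were with the mean over all probes (-0.09 each). Atp6v1c1, the C subunit that helps to hold V1 and V0 together, was highest in imDCs, at 2.00 against 1.20, 1.36 and 1.44, and under median scaling it was 2-fold lower in maDCs (-1.19) and sDCs (-1.03). The median difference from imDCs was 0.17 in maDCs and -0.12 in sDCs, and under median scaling these were -0.22 and -0.51.

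Pump genes outside the list behaved alike in that few passed 2-fold. Of 14 measured, 2 were higher in maDCs than imDCs (Atp6v0e by 1.04, and Atp6v0e2 just at the threshold), 1 was higher in sDCs than imDCs (Atp6v0e2 by 1.47) and 1 was lower in sDCs than maDCs (Atp6v0a1, a V0 subunit gene, at -1.27). Their medians were 0.22, 0.01 and -0.19, near the 0.18, 0.21 and 0.03 of all genes in the first of these comparisons and below them in the other 2. Of all genes, 21.6% were higher in maDCs and 25.4% in sDCs than in imDCs, and 16.8% were lower in sDCs than in maDCs.

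**Figure D5:**
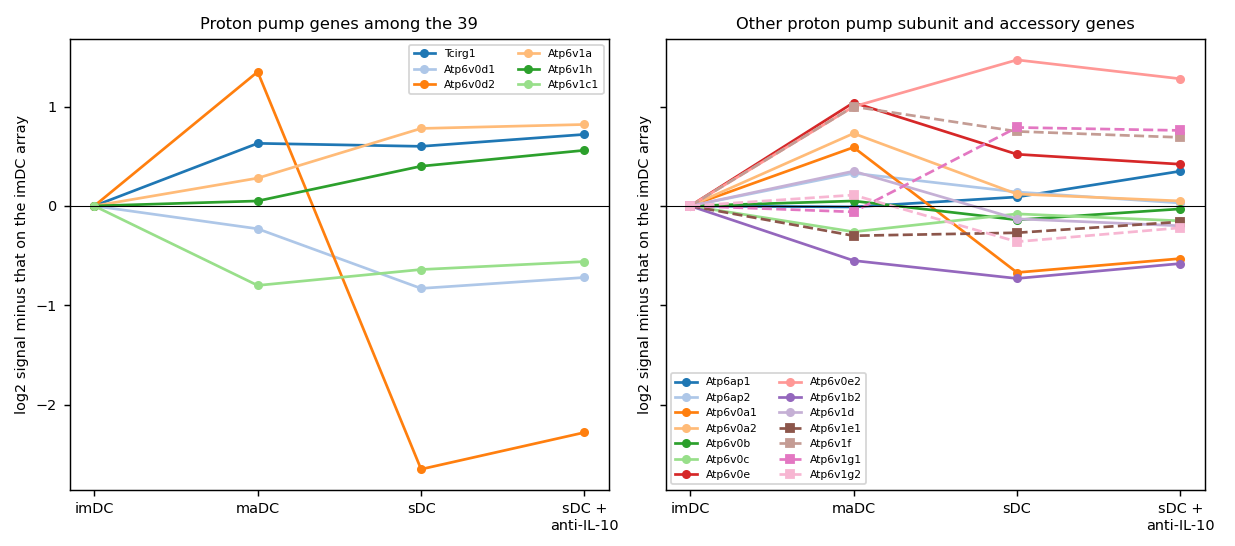
Log2 signal minus that on the imDC array (y axis) on the 4 arrays (x axis) for the 6 proton pump genes among the 39 (left) and 14 other pump subunit and accessory genes (right), 1 array per culture, with lines that join the values of 1 gene and imply no order in time. Atp6v0d2 is at -2.65 in sDCs, and the other lines on both panels lie between -0.83 and 1.47 in sDCs.

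Other genes of the lysosome, 87 of 90 listed with a value, were counted in the same way. In maDCs against imDCs 26 (29.9%) were higher and 8 (9.20%) lower, with a median of 0.42, beside 21.6% and 10.8% of all genes. In sDCs against imDCs 30 (34.5%) were higher and 8 (9.20%) lower, with a median of 0.52, beside 25.4% and 16.1%. In sDCs against maDCs 17 (19.5%) were higher and 7 (8.05%) lower, with a median of 0.18, beside 14.2% and 16.8%. The 14 cathepsin and legumain genes, which encode the main lysosomal proteases, had medians of 1.30 in maDCs and 1.72 in sDCs against imDCs, with 10 higher in each and 0 and 1 lower. They include Ctse, an aspartic protease gene, and Ctsw, known from cytotoxic lymphocytes. Of 18 other hydrolases, 3 were higher and 4 lower in maDCs, and 8 were higher and 2 lower in sDCs, relative to imDCs.

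The 3 widest differences each way in this wider list were as follows. In maDCs, Ctsw was above imDCs by 3.83, Acp5, the tartrate-resistant phosphatase gene, by 3.28 and the peptide transporter gene Slc15a3 by 2.70, while Mcoln3, a relative of Mcoln1, was at -2.88, the sorting receptor gene Sort1 at -2.21 and Naaa, an acid amidase gene, at -2.03. In sDCs, Hyal1, the gene of a hyaluronan-cleaving enzyme, exceeded imDCs by 6.58, Igf2r, the large mannose 6-phosphate receptor gene, by 4.00 and the metal transporter gene Slc11a1 by 3.62, whereas Ctse was at -4.33, Tfec at -3.98 and Mcoln3 at -3.11. Against maDCs, sDCs had more signal of Hyal1 (4.72), Hgsnat (2.09) and Pcyox1 (2.07), a prenylcysteine oxidase gene, and less of Ctse (-5.45), Ctsw (-4.24) and Acp5 (-4.13).

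The antibody against IL-10 left the 39 genes close to their signal in sDCs. None was 2-fold higher or lower, at a background of 0.862% higher and 1.25% lower over 14387 genes. Their differences ran from -0.56 to 0.36 with a median of -0.09, against -0.03 for all genes, and 37 of 39 were within 0.25 of 0, as were 79.1% of all genes. The 2 beyond it were Arsb (-0.56, with -0.48 on a second probe) and Atp6v0d2 (0.36). Next came Neu1, which gave 5.92 in sDCs and 5.68 with the antibody (-0.24), then Fuca1 (4.15 and 3.93) and Tpp1 (5.92 and 5.70), both at -0.22. All 6 proton pump genes were above their sDC signal, by 0.03 to 0.36, and 14 of 15 glycosidase and sulfatase genes were below it. With normexp background correction or the mean over probes 5 pump genes were above, and with quantile normalization 12 of 15 glycosidase and sulfatase genes were below. Of 14 pump genes outside the list, 6 were above and 8 below (median -0.04), so the upward direction was not shared by pump genes in general. Over all 14387 genes, 6100 were above their sDC signal and 8287 below. Other measured probes of the 39 genes had the sign of the brightest in 16 of 26 cases. The median SD between repeated spots of 1 probe was 0.0557 for sDCs and 0.0544 with the antibody, which covers spotting and scanning but not the spread between cultures. Over the same pair of arrays 5 of 8 neutrophil markers were at least 2-fold higher with the antibody (median 1.13), all 12 stromal markers were below their sDC signal, and no other lysosomal gene passed 2-fold.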

How the data were processed

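Per the labels' protocols, RNA from each culture was amplified, labelled with Cy3 and hybridised to 1 array. The authors deposited a scanner table for each array with a background-subtracted intensity per spot, made with Agilent Feature Extraction 10.5.1.1 and probe positions in mm9, per the file headers (9.1 per the submitters' processing notes). They also deposited a value table on a log2 scale, whose columns share a median of 6.30. It was used as an alternative, and its normalization is not stated in the labels or files.

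Intensity was put on the log2 scale and centred, array by array, on the 75th percentile of 43379 spots, controls left out. Outlier spots (76 to 148 per array) were left out, no spot was saturated (0), and spots of a probe were averaged. A probe counted as well above background if 50% or more of its spots carried that mark (61.2% to 69.7% of all spots per array). Where 1 of the 2 arrays compared was dim, the difference was taken as a bound, and the brightest probes of the 39 genes needed none. Probes were named by the files' gene names for the members, and otherwise through RefSeq (GRCm38.p6) by accession (25040), symbol (6319) or synonym (1640), while 8104 had no match. Levels of different probes were not compared, and some genes of the wider list are counted but not reported here by name. All members were named, and array-by-array signal was printed for the 6 with the largest difference in each comparison, the pump genes and Tfeb, and of other lysosomal genes the 3 largest each way.

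With 1 array per group, no p-value or standard error was computed, and the number of arrays limits the precision. The calculation was tested on simulated data. Scripts used Python 3.11.15, pandas 2.3.3, numpy 2.4.6 and, for normexp background correction, limma 3.58.1 in R 4.3.3. The members and lists were chosen with earlier results of these data known.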

Additional observations from a re-analysis of the deposited data

How the results depend on the processing

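No paired analysis was possible because each group had 1 array, and for the same reason no replicate could be left out. Under 8 alternatives (quantile normalization, median scaling, normexp background correction, the deposited value table, no filter on dim probes, only probes well above background on all 4 arrays, the mean over all probes of a gene, and a 1.5-fold threshold), no called difference of the 39 genes changed sign. Of 36 calls, 27 were kept under all 8. Some of the 8 could not lose a call. The 2 settings for dim probes left these values unchanged, since the 39 brightest probes were well above background on all 4 arrays. A 1.5-fold threshold keeps every 2-fold call by construction. The calls lost at least once were Lamp2, Idua and Atp6v0d2 in maDCs against imDCs, Gla, Smpd1, Tpp1, Ppt1 and Mcoln1 in sDCs against imDCs (lowest value 0.65, Tpp1 under median scaling), and Psap in sDCs against maDCs (0.92 with the mean over probes).

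With median scaling, 2 of the 39 genes were lower in maDCs than imDCs in place of 1, 9 were higher and 5 lower in sDCs than imDCs in place of 14 and 3, and 14 of the other lysosomal genes were higher in maDCs than imDCs in place of 26. With a 1.5-fold threshold, which counts smaller differences by construction, 20 were higher and 2 lower in maDCs than imDCs, 26 higher and 5 lower in sDCs than imDCs, and 14 higher and 5 lower in sDCs than maDCs, while 29 other lysosomal genes were higher and 14 lower in sDCs than maDCs. Of all genes called, the share higher in maDCs than imDCs was 57.7% with quantile normalization, 56.3% in the deposited value table and 78.2% without the filter. Second probes had the same sign as the brightest in 19 of 25, 21 of 27 and 18 of 25 cases (maDCs and sDCs against imDCs, sDCs against maDCs). For antibody-treated sDCs against sDCs this was 16 of 26. Of the 39 genes, 15 had 1 probe.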
